A study of Mus musculus with 16 samples.

Results

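The aminoacyl-tRNA synthetase genes are the 36 genes of the deposited counts that were matched by symbol to the enzymes that load amino acids onto transfer RNAs, out of 46078 genes listed. Of these, 18 encode cytosolic enzymes or their subunits, 16 encode mitochondrial enzymes, and 2, Gars and Kars, each encode enzymes that serve both compartments. They were counted in 16 RNA-seq libraries from bone marrow, 4 from each of 4 groups: polychromatic erythroblasts (Poly-E) and orthochromatic erythroblasts (Ortho-E) of Ypel4+/+ mice, and the same populations of Ypel4-/- mice. All 16 samples, controls too, are labelled with the background C57BL/6N-A<tm1Brd>, the allele name Ypel4<tm1a(EUCOMM)Wtsi> and the line suffix WtsiIeg. The Ypel4-/- mice are conventional knockouts with a gene-trap allele of Ypel4 on both copies, present in every cell, and Ypel4+/+ mice were the controls. Cells were sorted on CD44, Ter119 and exclusion of propidium iodide, so the populations are gates along a continuous maturation. No age or sex is labelled, and a further number that a Poly-E and an Ortho-E sample share in the deposited library names is read here as the mouse, which the labels do not state.

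Each synthetase recognises its own amino acid and the transfer RNAs that carry it, and the charged tRNA is then taken to the ribosome by an elongation factor. Mitochondria translate their own few messages with a separate set of tRNAs, which are charged by enzymes made from separate nuclear genes in most cases. During terminal erythropoiesis the cell makes globin in large amounts, condenses and expels its nucleus, and later loses its mitochondria, so both sets of enzymes work in a cell that is closing down most of its genes.

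Depth ranged from 2670173 to 12451234 counts per library, and the synthetase genes took from 0.107% to 0.387% of them. Ypel4 was checked first and lay between 490 and 716 CPM in Ypel4+/+ Poly-E, 9.90 to 23.6 in Ypel4-/- Poly-E, 4432 to 5440 in Ypel4+/+ Ortho-E and 175 to 224 in Ypel4-/- Ortho-E, as the labels state. CPM are read counts relative to library size, here scaled by trimmed mean of M values (TMM) factors over all 16 libraries. The 10 erythroid markers were all counted in each group, with a summed level of 37900 to 45540 CPM in Poly-E and 127000 to 164900 CPM in Ortho-E libraries. Markers of other cells were low, with neutrophil markers summing to 0.874 to 18.2 CPM, macrophage markers to 0.774 to 10.1 CPM, B cell markers to 12.4 to 43.6 CPM and T cell markers to at most 0.45 CPM. In Ortho-E, Pf4 and Gp1bb were at 0 and the megakaryocyte sum of 80.1 to 103 CPM was nearly all Itga2b, against 17.2 to 24.8 CPM in Poly-E, and Elane was at 0. The neutrophil, macrophage, B cell and megakaryocyte sums tended to be higher in Ortho-E, and their part in the results below was not tested. The Ypel4-/- Ortho-E libraries of replicates 1 and 3 stood apart with 22500 and 13231 CPM of Rn18s-rs5, a ribosomal RNA sequence, against 418 and 1007 in replicates 2 and 4. In sorted bulk samples, fewer cells that hold a transcript and less of it per cell cannot be told apart.

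Levels of different genes were compared as TPM, which divide the counts by gene length and by the library's total of such values. In Ypel4+/+ Poly-E the highest cytosolic level was that of Nars, asparaginyl-tRNA synthetase, at 231 ± 21.6 TPM (SD, n = 4), followed by Hars at 169 ± 24.6, Vars at 152 ± 16.7 and Aars at 115 ± 11.4, the enzymes for histidine, valine and alanine. The spread of the libraries did not separate Hars from Vars. The lowest in TPM was Eprs, the fused enzyme for glutamate and proline, at 5.50 ± 0.473 TPM. Ranks in TPM, here and in the other groups, depend on the deposited gene lengths. That of Eprs, 18102 bases, is the longest of the cytosolic members, against 3447 for Wars and 2632 for Nars. The low rank of Eprs therefore does not show that it had the fewest counts. In Ypel4+/+ Ortho-E Nars stood at 261 ± 34.0 TPM, while the next, Sars for serine, Cars for cysteine, Mars for methionine and Aars, lay between 33.3 and 45.5 TPM, with spreads that overlapped, and Eprs was again lowest at 1.01 ± 0.543. Ypel4-/- libraries gave the same genes at both ends, with Nars at 236 ± 18.6 and 248 ± 38.6 TPM and Eprs at 6.23 ± 0.838 and 0.961 ± 0.257.

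Most mitochondrial enzymes lay far below the cytosolic ones. Lars2, mitochondrial leucyl-tRNA synthetase, was the exception, with 456 ± 363 TPM in Ypel4+/+ Poly-E and 542 ± 389.6 in Ypel4+/+ Ortho-E, and it supplied 71.8% to 98.6% of the mitochondrial sum in each of the 16 libraries. The Lars2 counts moved with those of non-coding genes from library to library, as given below. Whether they share a source was not tested. Next were Fars2 for phenylalanine and Iars2 for isoleucine at 10.8 ± 0.914 and 9.33 ± 0.942 TPM in Ypel4+/+ Poly-E. Lowest was Ears2, glutamyl-tRNA synthetase of mitochondria, with 1 count over all libraries, so it entered no test. The other 35 genes passed the minimum of 10 counts over the 8 libraries of the comparisons between populations.

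**Figure D1:**
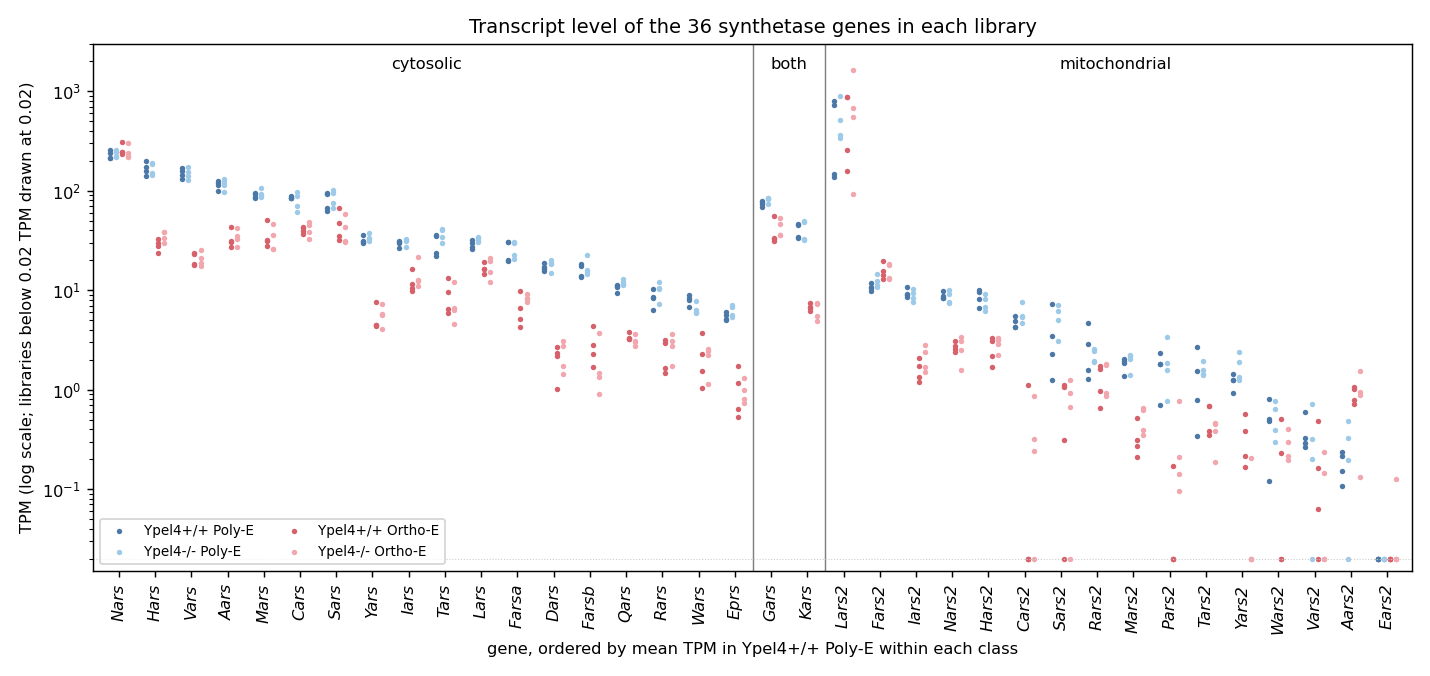
Levels of the 36 synthetase genes in TPM on a log axis, 1 point per library, with values under 0.02 drawn at 0.02. Nars and Lars2 head their classes, at 231 ± 21.6 and 456 ± 363 TPM in Ypel4+/+ Poly-E, and Ears2 had 1 count in all.

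The next comparison asked how the enzymes differed between Poly-E and the later Ortho-E within each genotype. With TMM scaling, 19 of 35 tested members were called in Ypel4+/+ (adjusted p of 0.05 or less, edgeR's quasi-likelihood test), 12 lower and 7 higher in Ortho-E, against 58.5% of all tested genes, of which 32.1% were lower and 26.4% higher. In Ypel4-/- mice 22 were called, 13 lower and 9 higher, against 61% of all genes, 31.5% lower and 29.5% higher. The median log2 fold change of the cytosolic members was −0.33 in Ypel4+/+ and −0.26 in Ypel4-/-, that of the mitochondrial members −0.24 and −0.37, and that of all tested genes −0.19 and −0.09. The classes thus lay slightly below the middle of all genes and the share called was close to that of all genes.

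The scaling decided the direction of many of these calls. With library totals in place of TMM factors the median of all tested genes moved by −1.26 on the log2 scale in Ypel4+/+ and by −1.39 in Ypel4-/-. Globin genes took 5.36% to 6.43% of the counts in Poly-E and 10.7% to 13.9% in Ortho-E libraries, and their part in that shift was not tested. On totals 28 members were lower and 3 higher in Ypel4+/+ (of all genes 70.7% called, 60.3% lower and 10.4% higher), and 28 lower and 2 higher in Ypel4-/- (72% called, 60.9% lower and 11.2% higher). Of all calls among members, the share that was higher was 36.8% with TMM and 9.68% on totals in Ypel4+/+, and 40.9% and 6.67% in Ypel4-/-. In all genes it was 45.1% and 14.7%, and 48.4% and 15.5%. Called the same way in both genotypes and on both scales were 9 genes that were lower, Dars, Eprs, Farsb, Hars, Vars, Yars, Kars, Cars2 and Iars2, and 2 that were higher, Aars2 and Fars2. No member was called in opposite directions in the 2 genotypes.

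**Figure D2:**
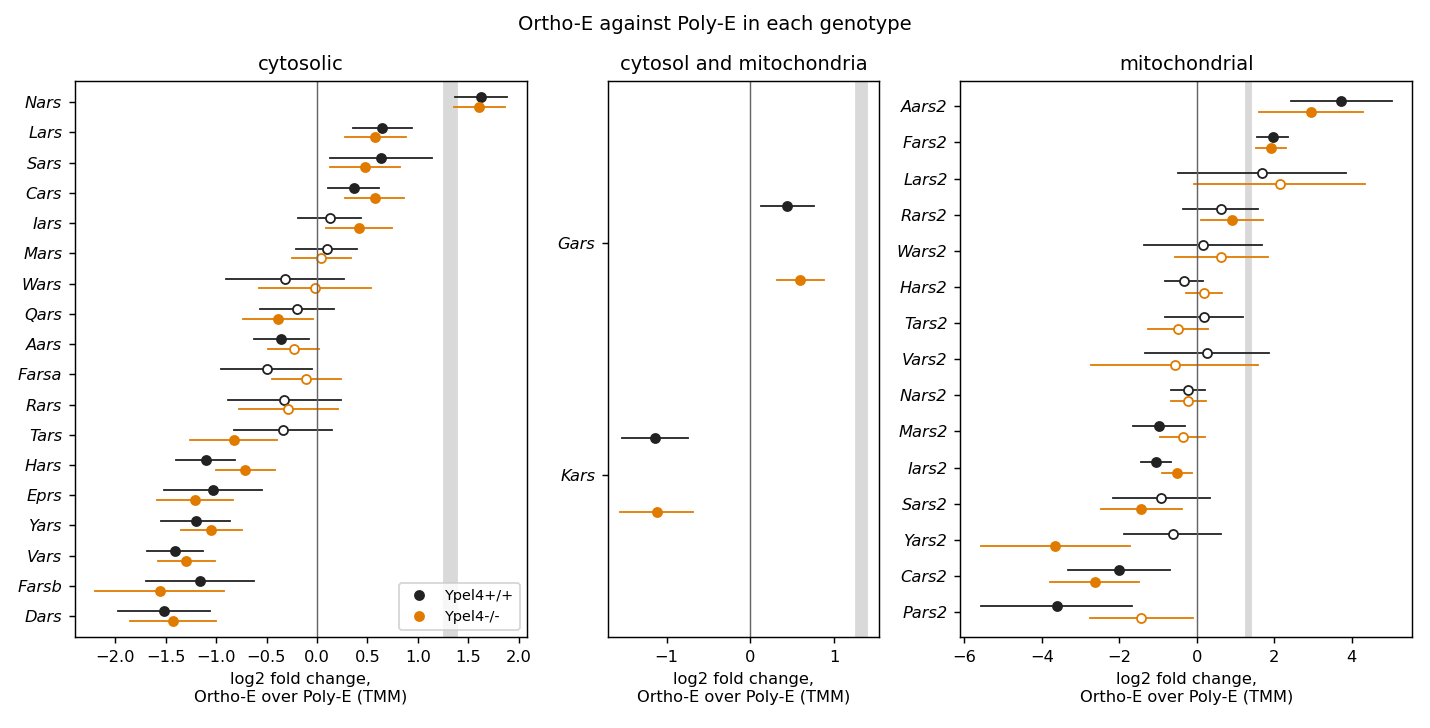
Log2 fold change of Ortho-E against Poly-E on the TMM scale for each tested member by class and genotype, with 95% intervals and filled points where edgeR's quasi-likelihood test made a call. The grey band from 1.26 to 1.39 marks where no change would lie on library totals, so that Fars2 and Aars2 lie above it in both genotypes while Lars, Sars and Gars lie below it and are lower on totals.

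Among the 18 cytosolic members, 7 were lower in Ypel4+/+ Ortho-E (Dars, Vars, Yars, Farsb, Hars, Eprs and Aars) and 4 were higher (Cars, Sars, Lars and Nars), of which Cars, Sars and Lars were lower on library totals. In Ypel4-/- mice 8 were lower, Tars and Qars among them and Aars not, and 5 were higher, Iars in addition, of which all but Nars were lower on totals.

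By the mean over both genotypes the lowest fold changes belonged to Dars, Vars, Farsb and Yars, although Eprs at −1.21 was below Yars in Ypel4-/-. Dars, aspartyl-tRNA synthetase, measured 17.6, 18.4, 21.4 and 16.3 CPM in Ypel4+/+ Poly-E and 6.76, 2.86, 7.33 and 6.996 CPM in Ypel4+/+ Ortho-E. In Ypel4-/- it measured 18.4, 16.8, 20.7 and 20.7 CPM against 3.60, 7.79, 5.58 and 7.91 CPM. Each Ortho-E library lay below each Poly-E library, with a log2 fold change of −1.52 ± 0.22 (SE, adjusted p = 1.24e-06, edgeR's quasi-likelihood test) in Ypel4+/+ and −1.43 ± 0.21 (adjusted p = 4.06e-07) in Ypel4-/-. Vars, valyl-tRNA synthetase, measured 203, 181, 251 and 214 CPM in Ypel4+/+ Poly-E and 71.0, 66.9, 82.6 and 90.5 CPM in Ypel4+/+ Ortho-E. In Ypel4-/- mice its levels were 181, 184, 221 and 227 CPM against 56.2, 67.9, 78.1 and 93.4 CPM. Here too the groups did not overlap, and the log2 fold changes were −1.41 ± 0.13 (SE, adjusted p = 7.09e-10, edgeR's quasi-likelihood test) and −1.29 ± 0.14 (adjusted p = 5.2e-10).

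Farsb encodes the beta subunit of cytosolic phenylalanyl-tRNA synthetase. It measured 12.0, 8.71, 9.59 and 10.96 CPM in Ypel4+/+ Poly-E and 4.22, 7.43, 4.66 and 3.03 CPM in Ypel4+/+ Ortho-E. In Ypel4-/- the values were 13.9, 10.7, 10.2 and 9.0 CPM against 1.35, 2.23, 7.22 and 2.32 CPM. Ortho-E was lower without overlap in both genotypes, by −1.16 ± 0.26 (SE, adjusted p = 0.000379, edgeR's quasi-likelihood test) and −1.56 ± 0.31 (adjusted p = 8.38e-05) on the log2 scale. Of the Farsb exons, 9.47% overlap Sgpp2 on the other strand, and reads there were not counted. Yars, tyrosyl-tRNA synthetase, stood at 53.0, 43.9, 46.5 and 45.1 CPM in Ypel4+/+ Poly-E and, in Ypel4+/+ Ortho-E, at 18.6, 29.1, 16.3 and 18.2 CPM. In Ypel4-/- it stood at 52.2, 50.2, 50.9 and 43.5 CPM against 24.7, 19.3, 18.05 and 22.8 CPM. The Ortho-E libraries were again all lower, by −1.20 ± 0.17 (SE, adjusted p = 5.21e-07, edgeR's quasi-likelihood test) and −1.05 ± 0.15 (adjusted p = 2.03e-07).

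Nars went the other way. It measured 169, 153, 148 and 135 CPM in Ypel4+/+ Poly-E and 460.1, 527, 409.7 and 425 CPM in Ypel4+/+ Ortho-E. In Ypel4-/- mice it measured 136, 147, 172 and 151 CPM against 364, 459.9, 427 and 389 CPM. Every Ortho-E library lay above every Poly-E library, and within each replicate number the ratio of Ortho-E to Poly-E was 2.72 to 3.45 in Ypel4+/+ and 2.48 to 3.12 in Ypel4-/-. The log2 fold change was 1.62 ± 0.12 (SE, adjusted p = 8.88e-12, edgeR's quasi-likelihood test) in Ypel4+/+ and 1.61 ± 0.13 (adjusted p = 3.67e-13) in Ypel4-/-, and on library totals it was 0.35 (adjusted p = 0.0115) and 0.19 (adjusted p = 0.131). It exceeded 84.4% of all tested genes in Ypel4+/+ and 82.1% in Ypel4-/-.

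Lars, the cytosolic leucyl-tRNA synthetase, stood at 28.4, 25.4, 26.5 and 29.6 CPM in Ypel4+/+ Poly-E and, in Ypel4+/+ Ortho-E, at 44.4, 47.4, 39.6 and 38.0 CPM. Its Ypel4-/- values were 26.95, 34.4, 33.1 and 29.0 CPM against 46.8, 44.1, 34.8 and 38.4 CPM. Without overlap it was higher by 0.65 ± 0.14 (SE, adjusted p = 0.000292, edgeR's quasi-likelihood test) and 0.58 ± 0.15 (adjusted p = 0.00111) with TMM, and lower on library totals, at −0.64 and −0.84. Sars, seryl-tRNA synthetase, measured 121, 116, 91.7 and 77.0 CPM in Ypel4+/+ Poly-E and 174, 221, 115 and 111 CPM in Ypel4+/+ Ortho-E. In Ypel4-/- mice it measured 114, 134, 98.5 and 80.1 CPM against 173, 128, 115 and 105 CPM. The groups overlapped in both genotypes. The log2 fold changes of 0.64 ± 0.23 (SE, adjusted p = 0.033, edgeR's quasi-likelihood test) and 0.48 ± 0.17 (adjusted p = 0.0177) turned to −0.64 and −0.95 on totals, and the calls with TMM were lost when Ortho-E replicate 1 or 2 or Poly-E replicate 4 was left out in either genotype, or Poly-E replicate 3 in Ypel4+/+.

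These shifts changed the make-up of the cytosolic set, which does not depend on the scaling between libraries. Nars supplied 22.1%, 21.5%, 19.2% and 18.8% of the summed cytosolic TPM in Ypel4+/+ Poly-E and 49.4%, 48.9%, 49.6% and 50.04% in Ypel4+/+ Ortho-E. In Ypel4-/- it supplied 19.6%, 20.5%, 21.3% and 20.2% against 42.8%, 51.3%, 49.2% and 47.5%. The shares did not overlap between the populations. Hars went from 14.9% ± 1.99 (SD, n = 4) to 5.51% ± 1.08 in Ypel4+/+, Vars from 13.4% ± 1.51 to 4.04% ± 0.972 and Aars from 10.2% ± 1.19 to 6.25% ± 0.465. The summed cytosolic level itself was 1132 ± 28.2 TPM in Poly-E and 528 ± 73.8 in Ortho-E of Ypel4+/+ mice, and 1158 ± 70.6 and 519.6 ± 70.7 in those of Ypel4-/- mice. Without Nars it was 901 against 267 TPM in Ypel4+/+ and 921 against 272 TPM in Ypel4-/- mice. TPM are relative to all transcripts of a library, so these sums move with library composition as the totals do.

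**Figure D3:**
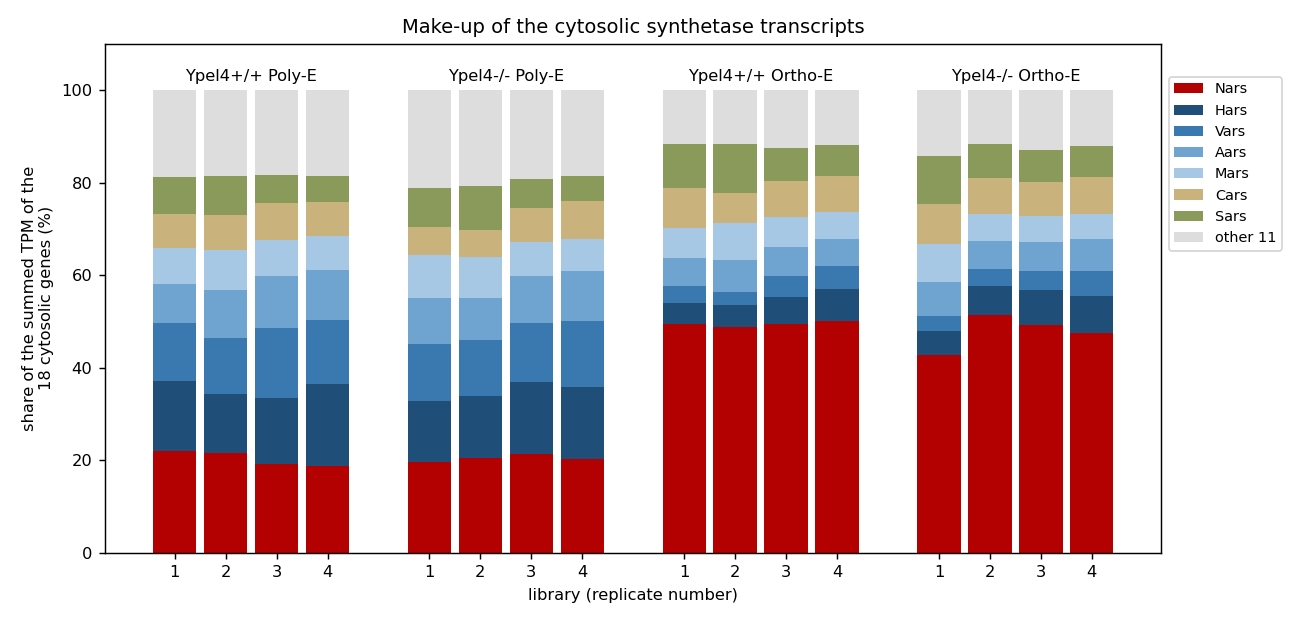
Share of the summed cytosolic TPM of each library, in percent, held by Nars, Hars, Vars, Aars, Mars, Cars, Sars and the other 11 members. The Nars share was 18.8% to 22.1% in Poly-E and 42.8% to 51.3% in Ortho-E libraries.

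Of the cytosolic enzymes, 7 sit with Kars in the multi-synthetase complex, an assembly of synthetases held together by scaffold proteins. Of these 8 complex members, 3 were lower (Dars, Kars and Eprs) and 1 higher (Lars) in Ypel4+/+ Ortho-E, and 4 were lower and 2 higher in Ypel4-/-, where Qars was added to the lower and Iars to the higher genes. On library totals all 8 were lower in both genotypes. The median log2 fold change of the complex was −0.26 in Ypel4+/+ and −0.34 in Ypel4-/-, and that of the 11 cytosolic members outside it −0.35 and −0.23. Of the 3 scaffold genes, Eef1e1 had the lowest log2 fold change, −1.15 in Ypel4+/+ and −1.09 in Ypel4-/-, and was called in both, and Aimp1 was also called lower in Ypel4-/-. Aimp2 was highest, at −0.26 and −0.07.

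The enzymes that serve both compartments moved apart on the TMM scale. Gars, glycyl-tRNA synthetase, measured 40.9, 45.9, 48.9 and 42.2 CPM in Ypel4+/+ Poly-E and 54.5, 85.1, 49.96 and 50.4 CPM in Ypel4+/+ Ortho-E. Its Ypel4-/- levels were 46.4, 45.8, 51.3 and 45.8 CPM against 72.0, 63.1, 63.7 and 56.2 CPM. The Ortho-E libraries were higher without overlap, by 0.44 ± 0.15 (SE, adjusted p = 0.016, edgeR's quasi-likelihood test) and 0.59 ± 0.14 (adjusted p = 0.000318), while on library totals Gars was lower, at −0.84 and −0.82. Without Ypel4+/+ Ortho-E replicate 2 its log2 fold change in Ypel4+/+ was 0.26 (adjusted p = 0.122).

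Kars, lysyl-tRNA synthetase, measured 19.0, 18.6, 26.99 and 24.8 CPM in Ypel4+/+ Poly-E and 11.8, 9.71, 9.33 and 9.56 CPM in Ypel4+/+ Ortho-E. In Ypel4-/- it measured 17.2, 18.4, 27.9 and 26.1 CPM against 6.30, 7.05, 12.5 and 10.8 CPM. All Ortho-E libraries lay below all Poly-E libraries, with log2 fold changes of −1.13 ± 0.19 (SE, adjusted p = 1.1e-05, edgeR's quasi-likelihood test) and −1.12 ± 0.21 (adjusted p = 3.35e-05).

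The start-site sequences of these genes were read from RefSeq on GRCm38.p6, as 250 bases before to 50 after the annotated start, and 27 of the 36 members had such a window. No window was found for Nars, Lars, Cars, Hars, Rars, Vars, Wars, Hars2 and Pars2, so these genes were not searched for motifs. The motifs were searched on both strands and did not overlap one another in the windows shown: TGATGNAAT, the joint element of ATF4 and C/EBP factors, CACGTG, the E-box, CCGGAAGT, a motif of ETS factors, and GCGCANGCG, the motif of NRF1. The joint ATF4 element was found in 3 of the 27 windows (11.1%), those of Aars, Iars and Gars, and in 0.965% of all 32851 windows. None of the 14 mitochondrial windows held it. The NRF1 motif was found in 7 windows (25.9%), Farsb, Tars, Kars, Iars2, Mars2, Vars2 and Wars2, and in 6.25% of all windows. The E-box was in 5 (18.5%, all windows 7.15%) and the ETS motif in 3 (11.1%, all windows 3.89%). The median share of G and C bases was 57.7% in the members' windows and 52.7% in all windows, and the motif shares were not adjusted for it. These matches are letters in a window and were not tested for binding. The windows of the 3 genes with the ATF4 element and of Kars, which moved apart from Gars, are shown in the direction of transcription with each motif in capitals. The ATF4 element began 113 bases before the start in Aars (chr8:111033592-111033891, plus strand), 31 before it in Gars (chr6:55037751-55038050, plus strand) and 6 bases after it in Iars (chr13:49681880-49682179, plus strand), and the capitals in Kars (chr8:112011305-112011604, minus strand) are the NRF1 motif.
Aars: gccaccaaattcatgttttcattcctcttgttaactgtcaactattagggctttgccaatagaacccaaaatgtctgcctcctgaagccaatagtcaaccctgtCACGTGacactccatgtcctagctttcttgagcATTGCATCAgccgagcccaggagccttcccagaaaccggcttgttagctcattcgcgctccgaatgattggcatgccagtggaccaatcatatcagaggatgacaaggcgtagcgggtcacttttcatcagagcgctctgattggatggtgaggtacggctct
Iars: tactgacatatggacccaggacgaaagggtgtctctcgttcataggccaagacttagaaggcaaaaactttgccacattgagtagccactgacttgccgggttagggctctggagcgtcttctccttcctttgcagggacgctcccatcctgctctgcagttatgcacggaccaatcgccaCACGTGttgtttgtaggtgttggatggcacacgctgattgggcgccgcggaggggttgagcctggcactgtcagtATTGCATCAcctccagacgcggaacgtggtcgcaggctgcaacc
Gars: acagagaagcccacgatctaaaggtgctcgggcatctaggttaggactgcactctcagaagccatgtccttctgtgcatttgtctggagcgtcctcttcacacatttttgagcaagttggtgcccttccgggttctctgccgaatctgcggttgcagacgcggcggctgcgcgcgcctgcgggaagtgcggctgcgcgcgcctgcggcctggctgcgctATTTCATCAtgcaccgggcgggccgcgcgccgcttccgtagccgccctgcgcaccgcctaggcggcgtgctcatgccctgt
Kars: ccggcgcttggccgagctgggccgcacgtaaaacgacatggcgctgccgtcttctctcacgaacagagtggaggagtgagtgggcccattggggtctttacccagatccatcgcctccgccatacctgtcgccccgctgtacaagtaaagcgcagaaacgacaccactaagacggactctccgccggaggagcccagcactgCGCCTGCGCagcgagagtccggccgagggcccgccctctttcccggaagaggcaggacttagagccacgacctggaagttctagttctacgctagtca
Among these 3 genes with the ATF4 element, Gars was called higher in both genotypes with TMM and Iars in Ypel4-/-, and Aars was called lower in Ypel4+/+, while on library totals Gars and Iars were lower.

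Of the 15 mitochondrial members tested, 4 were lower in Ypel4+/+ Ortho-E (Pars2, Cars2, Iars2 and Mars2) and 2 higher (Fars2 and Aars2). In Ypel4-/- mice 4 were lower (Yars2, Cars2, Sars2 and Iars2) and 3 higher (Rars2, Fars2 and Aars2), with Rars2 at −0.48 and not called on library totals. Many of these genes had few counts.

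Fars2 attaches phenylalanine to the mitochondrial tRNA as a single chain, while the cytosolic enzyme is built from Farsa and Farsb. Its gene lies at chr13:36117411-36537592 on the plus strand (GRCm38). It measured 5.57, 6.19, 6.02 and 4.96 CPM in Ypel4+/+ Poly-E and 21.1, 26.9, 21.0 and 18.7 CPM in Ypel4+/+ Ortho-E. In Ypel4-/- mice it measured 5.33, 7.90, 6.62 and 5.66 CPM against 22.0, 15.9, 21.0 and 25.1 CPM. Every Ortho-E library was higher, and the log2 fold change was 1.96 ± 0.19 (SE, adjusted p = 1.19e-09, edgeR's quasi-likelihood test) in Ypel4+/+ and 1.91 ± 0.19 (adjusted p = 9.93e-11) in Ypel4-/-, with 0.68 and 0.51 on library totals, also called.

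Aars2, mitochondrial alanyl-tRNA synthetase, was close to absent in Poly-E, with 0.1796, 0.194, 0.132 and 0.0870 CPM in Ypel4+/+ against 1.69, 2.29, 1.67 and 2.33 CPM in Ortho-E. In Ypel4-/- it measured 0.152, 0, 0.414 and 0.257 CPM against 1.80, 2.97, 0.328 and 1.93 CPM. The groups were separate in Ypel4+/+ and overlapped in Ypel4-/-, where replicate 3 of Ortho-E was low. The log2 fold changes were 3.73 ± 0.63 (SE, adjusted p = 1.14e-05, edgeR's quasi-likelihood test) and 2.95 ± 0.66 (adjusted p = 0.000257), from 5 and 9 counts over the Poly-E groups and 23 over each Ortho-E group.

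Cars2, mitochondrial cysteinyl-tRNA synthetase, measured 2.51, 1.94, 2.05 and 2.17 CPM in Ypel4+/+ Poly-E and 0, 0, 0 and 1.399 CPM in Ypel4+/+ Ortho-E. Its Ypel4-/- values were 2.28, 2.63, 2.21 and 3.29 CPM against 0.8997, 0, 0.328 and 0.386 CPM. The groups did not overlap, and the log2 fold changes were −2.01 ± 0.64 (SE, adjusted p = 0.00873, edgeR's quasi-likelihood test) and −2.63 ± 0.56 (adjusted p = 0.000142). All counts in Ypel4+/+ Ortho-E came from replicate 4, so without it the group was at 0, against 80 counts over the Poly-E group. Of its exons, 20.48% overlap Carkd on the other strand.

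Pars2, the mitochondrial prolyl enzyme, measured 0.539, 1.35, 1.46 and 1.74 CPM in Ypel4+/+ Poly-E and 0, 0, 0.333 and 0 CPM in Ypel4+/+ Ortho-E, that is 52 counts against 1. Poly-E exceeded Ortho-E by a ratio of 15.9 with a 95% counting interval of 2.73 to 639, and edgeR's quasi-likelihood test gave an adjusted p = 0.00185. In Ypel4-/- it measured 2.44, 0.607, 1.24 and 1.34 CPM against 1.35, 0.371, 0.328 and 0.193 CPM, which overlapped, at a log2 fold change of −1.44 ± 0.65 (SE, adjusted p = 0.0562, edgeR's quasi-likelihood test). It was called in Ypel4-/- without Ortho-E replicate 1, at −2.17, or without Poly-E replicate 2, at −1.62, and on library totals, at −2.79.

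Yars2, the mitochondrial tyrosyl enzyme, gave the opposite split. It measured 1.37, 1.01, 1.93 and 0.977 CPM in Ypel4-/- Poly-E and 0, 0.371, 0 and 0 CPM in Ypel4-/- Ortho-E, 47 counts against 1, a ratio of 16.2 with a counting interval of 2.77 to 652 (adjusted p = 0.00111, edgeR's quasi-likelihood test). In Ypel4+/+ it measured 0.718, 0.968, 1.19 and 0.957 CPM against 0.845, 1.14, 0.333 and 0.466 CPM, with overlap and a log2 fold change of −0.62 ± 0.61 (SE, adjusted p = 0.401, edgeR's quasi-likelihood test). Sars2, the mitochondrial seryl enzyme, measured 1.37, 3.04, 3.45 and 2.26 CPM in Ypel4-/- Poly-E and 1.35, 0.742, 0 and 1.16 CPM in Ypel4-/- Ortho-E. It was lower there by −1.43 ± 0.51 (SE, adjusted p = 0.0162, edgeR's quasi-likelihood test), a call lost at −1.26 without Poly-E replicate 3 and at −1.07 without Ortho-E replicate 3. In Ypel4+/+ it measured 1.08, 0.581, 1.72 and 3.30 CPM against 0.422, 0, 1.33 and 1.399 CPM, with overlap and a log2 fold change of −0.91 ± 0.60 (SE, adjusted p = 0.2, edgeR's quasi-likelihood test). On library totals Yars2 and Sars2 were called lower in Ypel4+/+ too, at −1.87 and −2.18.

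Lars2 varied widely between libraries of a group. The gene lies at chr9:123366940-123462664 on the plus strand (GRCm38, from the deposited files), with no exon shared with another gene. It measured 134, 138, 819 and 685 CPM in Ypel4+/+ Poly-E and 433, 637, 2136 and 2333 CPM in Ypel4+/+ Ortho-E. In Ypel4-/- it measured 325, 336, 878 and 471 CPM against 1235, 209, 4768 and 1756 CPM. Replicates 3 and 4 were above replicates 1 and 2 in all 4 groups, the populations overlapped in both genotypes, and the log2 fold changes of 1.68 ± 0.90 (SE, adjusted p = 0.158, edgeR's quasi-likelihood test) and 2.14 ± 0.91 (adjusted p = 0.0846) were not called. Within a replicate number the Ortho-E library was higher in 4 of 4 Ypel4+/+ pairs, by ratios of 2.61 to 4.60, and in 3 of 4 Ypel4-/- pairs, with ratios of 0.622 to 5.43. With the replicate number as a block the log2 fold change was 1.78 in Ypel4+/+ (adjusted p = 9.53e-84, edgeR's quasi-likelihood test) and 1.65 in Ypel4-/- (adjusted p = 0.143). Dispersion in edgeR is shared across genes, so the smaller of these p-values does not rest on the 4 pairs alone. On library totals the log2 fold change was 0.39 and 0.71, not called. DESeq2 called it in both genotypes (adjusted p = 0.0476 and 0.0134), and edgeR's quasi-likelihood test called it in Ypel4-/- without Ortho-E replicate 2, at 2.52 (adjusted p = 0.02). Within replicates 1 and 2 alone the log2 fold change was 2.08 in Ypel4+/+ and 1.34 in Ypel4-/-, and within replicates 3 and 4 it was 1.64 and 2.41.

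Non-coding genes, chosen after their values were seen, moved with Lars2 from library to library. Gm23935 measured 190, 209, 1305 and 1013 CPM in Ypel4+/+ Poly-E and 936, 1271, 3222 and 3679 CPM in Ypel4+/+ Ortho-E. In Ypel4-/- it measured 523, 555, 1344 and 667 CPM against 1732, 298, 7707 and 2755 CPM. The ratios of Ortho-E to Poly-E within Ypel4-/- replicate 2 were 0.537 for Gm23935, 0.717 for Gm24270 and 0.363 for Mir6236, beside 0.622 for Lars2, and all were above 1 in the other 3 Ypel4-/- pairs. Gm26917 was above 1 in every pair, from 1.26 to 3.15 in Ypel4-/-. Whether the Lars2 counts share a source with these genes was not tested.

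**Figure D4:**
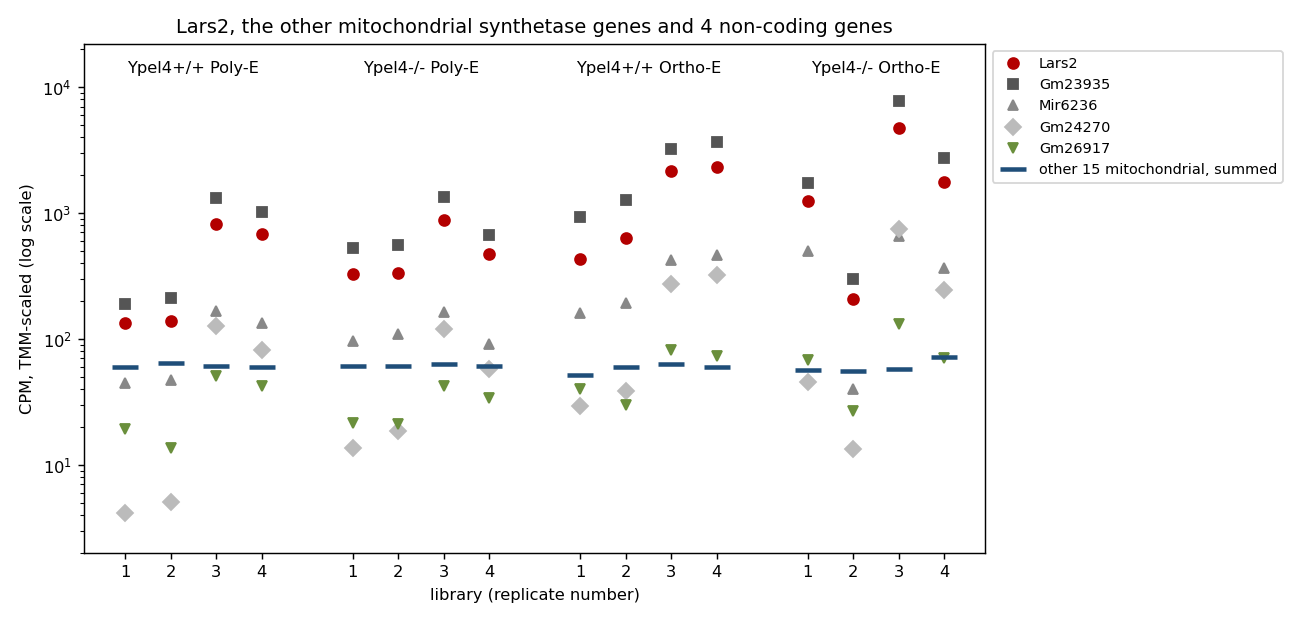
CPM of Lars2, of Gm23935, Mir6236, Gm24270 and Gm26917, and of the other 15 mitochondrial members summed, in each of the 16 libraries. Lars2 ranged from 134 to 4768 CPM, and in Ypel4-/- Ortho-E replicate 2, where it was at 209 CPM, Gm23935, Mir6236 and Gm24270 were also below their Poly-E library of that number, while Gm26917 was not.

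Pairs of enzymes for the same amino acid can be compared within a library, free of the scaling between libraries. The TPM of Fars2 were 53.0%, 60.5%, 35.5% and 31.8% of those of Farsa in Ypel4+/+ Poly-E and 274%, 456%, 160.2% and 194% in Ypel4+/+ Ortho-E. In Ypel4-/- they were 52.6%, 64.6%, 41.2% and 37.5% against 218%, 141%, 165% and 233%. In TPM the mitochondrial enzyme was thus below the cytosolic alpha subunit in each Poly-E library and above it in each Ortho-E library. The level of this ratio depends on the deposited gene lengths, 2125 bases for Fars2 and 4538 for Farsa. Its rise from Poly-E to Ortho-E does not. Nars2 went from 3.85% ± 0.406 of Nars (SD, n = 4) in Ypel4+/+ Poly-E to 1.04% ± 0.183 in Ypel4+/+ Ortho-E, and from 3.64% ± 0.632 to 1.06% ± 0.277 in Ypel4-/-. Iars2 went from 31.6% ± 2.92 of Iars to 14.1% ± 5.68 in Ypel4+/+, without overlap, and from 29.1% ± 3.41 to 16.03% ± 7.78 in Ypel4-/-, where the libraries overlapped. Hars2 went from 5.18% ± 1.24 to 8.97% ± 2.55 of Hars in Ypel4+/+, with overlap, while the Ypel4-/- values of 4.51% ± 0.410 and 8.26% ± 1.13 did not overlap. Hars and Hars2 overlap by 195 exonic bases on opposite strands. Of the Iars2 exons, 24.18% overlap genes on the other strand.

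Summed over the class, the mitochondrial members of Ypel4+/+ mice stood at 512 ± 363 TPM before and 569 ± 391 TPM after the step from Poly-E to Ortho-E, and those of Ypel4-/- mice at 586 ± 256 and 778 ± 656. Without Lars2 the sums of Ypel4+/+ were 55.5 ± 2.68 and 27.1 ± 3.27 TPM and those of Ypel4-/- 58.99 ± 1.54 and 28.2 ± 4.22 TPM. The mitochondrial share was taken of the summed TPM of cytosolic and mitochondrial members, with Gars and Kars left out. Without Lars2 this share was 4.67% ± 0.268 and 4.90% ± 0.560 in Poly-E and Ortho-E of Ypel4+/+. In those of Ypel4-/- it was 4.86% ± 0.208 and 5.18% ± 0.844, and the populations overlapped in both genotypes. With Lars2 it was 28.6% ± 15.9 and 46.9% ± 21.1 in Ypel4+/+ and 32.6% ± 8.06 and 51.8% ± 26.1 in Ypel4-/-.

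Genes around the synthetases were counted on the TMM scale, where 26.4% of all genes were higher and 32.1% lower in Ypel4+/+, and 29.5% and 31.5% in Ypel4-/-, and then on library totals, a count added after seeing the data. The ATF4 pathway answers shortage of heme through the kinase encoded by Eif2ak1. Of its 10 tested genes, 7 were higher and 0 lower in Ypel4+/+ Ortho-E, and 7 higher and 1 lower in Ypel4-/-. Their median log2 fold changes were 1.33 and 1.35. On totals 3 were higher and 3 lower in Ypel4+/+ and 4 higher and 4 lower in Ypel4-/-, with medians of 0.06 and −0.08. Higher genes thus no longer outnumbered lower ones. The 3 higher in Ypel4+/+ on totals were Eif2ak1 at 0.91, Slc3a2 at 0.47 and Ppp1r15a. Atf4 itself and Ddit3 were not called higher with TMM in either genotype. On totals both were lower in Ypel4+/+, at −1.31 and −1.23. Of all genes on totals, 10.4% were higher and 60.3% lower in Ypel4+/+, and 11.2% and 60.9% in Ypel4-/-, with medians of −1.45 and −1.47. Ppp1r15a, which encodes a phosphatase subunit that ends the response, was called higher on both scales, at 2.53 and 2.73 with TMM and 1.25 and 1.32 on totals. Psat1, an enzyme of serine synthesis, was lowest at −1.02, not called, and −1.62, called, with TMM. Of 5 cytosolic elongation factors, 2 were lower and 2 higher in Ypel4+/+ and 3 lower and 2 higher in Ypel4-/-, from Eef1g at −0.50 and −0.57 to Eef1d at 0.81 and 0.80, while on totals all 5 were lower in both genotypes, Eef1d at −0.47 and −0.62. Of 4 mitochondrial elongation factors, Tsfm, Tufm and Gfm1 were lower and Gfm2 higher in Ypel4+/+, and Gfm1 lower and Gfm2 higher in Ypel4-/-, with Tsfm lowest at −3.11 and −1.35 and Gfm2 highest at 0.53 and 1.01, while on totals all 4 were lower in both genotypes, Gfm2 at −0.76 and −0.40.

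Of 13 genes of tRNA maturation 8 were tested, and with TMM 3 were lower and 2 higher in each genotype, beside 58.5% of all genes called in Ypel4+/+ and 61% in Ypel4-/-. On totals 7 were lower and 1 higher, Trnt1, which adds the CCA end of tRNAs, having turned from 0.69 and 0.59 to −0.60 and −0.82. Pop5, a subunit of ribonuclease P, was highest and called higher on both scales, at 2.35 and 2.71 with TMM, while Pop4 was lowest in Ypel4+/+ at −4.39 and Rpp21 in Ypel4-/- at −1.80.

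The comparison of genotypes asked whether loss of Ypel4 changed these enzymes. No member was called in Poly-E, where 0.00807% of all tested genes were called, in Ortho-E (0.0285%, of which 0.019% lower and 0.0095% higher) or in the interaction of genotype and population (0%) by edgeR's quasi-likelihood test. DESeq2 on the same libraries also called none. At an unadjusted p under 0.05 the counts were 0, 0 and 1. The 95% interval of the log2 fold change lay between −1 and 1 for 29 of 35 members in Poly-E, all 18 cytosolic ones and 9 of 15 mitochondrial ones among them, and for 23 of 33 in Ortho-E, 17 of 18 cytosolic and 4 of 13 mitochondrial. For the other members the interval reached past −1 or 1, so that a change of that size lay within it. In Ortho-E, Pars2 and Yars2 were below the minimum of counts, with Ears2.

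In Poly-E the lowest unadjusted p belonged to Wars, tryptophanyl-tRNA synthetase, with 6.82, 6.97, 6.15 and 7.48 CPM in Ypel4+/+ and 4.72, 6.88, 5.24 and 5.09 CPM in Ypel4-/-. Its log2 fold change was −0.34 ± 0.19 (SE, adjusted p = 0.9998, edgeR's quasi-likelihood test), and the groups overlapped. Tars, the threonyl enzyme, followed at 0.30 ± 0.17 and Lars at 0.16 ± 0.12, both with the same adjusted p. In Ortho-E, Hars stood at 33.0, 38.3, 35.3 and 44.8 CPM in Ypel4+/+ and 33.7, 43.8, 49.6 and 49.8 CPM in Ypel4-/-, a log2 fold change of 0.25 ± 0.15 (SE, adjusted p = 0.9957, edgeR's quasi-likelihood test), with overlap. Mars2 followed at 0.62 ± 0.39 and Iars2 at 0.35 ± 0.24, the mitochondrial enzymes for methionine and isoleucine.

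Nars differed by 0.01 between the genotypes in Poly-E, with a 95% interval of −0.21 to 0.23, and by −0.13 in Ortho-E, with an interval of −0.35 to 0.10. Fars2 differed by 0.15 (−0.25 to 0.55) and −0.01 (−0.38 to 0.36). For Lars2 the intervals were much wider, −1.61 to 1.97 in Poly-E and −1.83 to 2.92 in Ortho-E. In Poly-E its difference between genotypes was 1.28 within replicates 1 and 2 and −0.16 within replicates 3 and 4, from 2 libraries of each genotype. These were opposite in sign, and the pooled 0.18 was not called.

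In the interaction, which asks whether the change from Poly-E to Ortho-E differed between the genotypes, Yars2 was the member with an unadjusted p under 0.05, at −3.11 ± 1.21 on the log2 scale (SE, adjusted p = 1, edgeR's quasi-likelihood test), from 7 counts in Ypel4+/+ Ortho-E and 1 in Ypel4-/- Ortho-E. Tars at −0.62 ± 0.34 and Iars2 at 0.43 ± 0.28 were next. Between the genotypes 9 members differed in whether they were called, Aars, Iars, Qars, Tars, Mars2, Pars2, Rars2, Sars2 and Yars2, and the test of that difference did not call any of them.

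**Figure D5:**
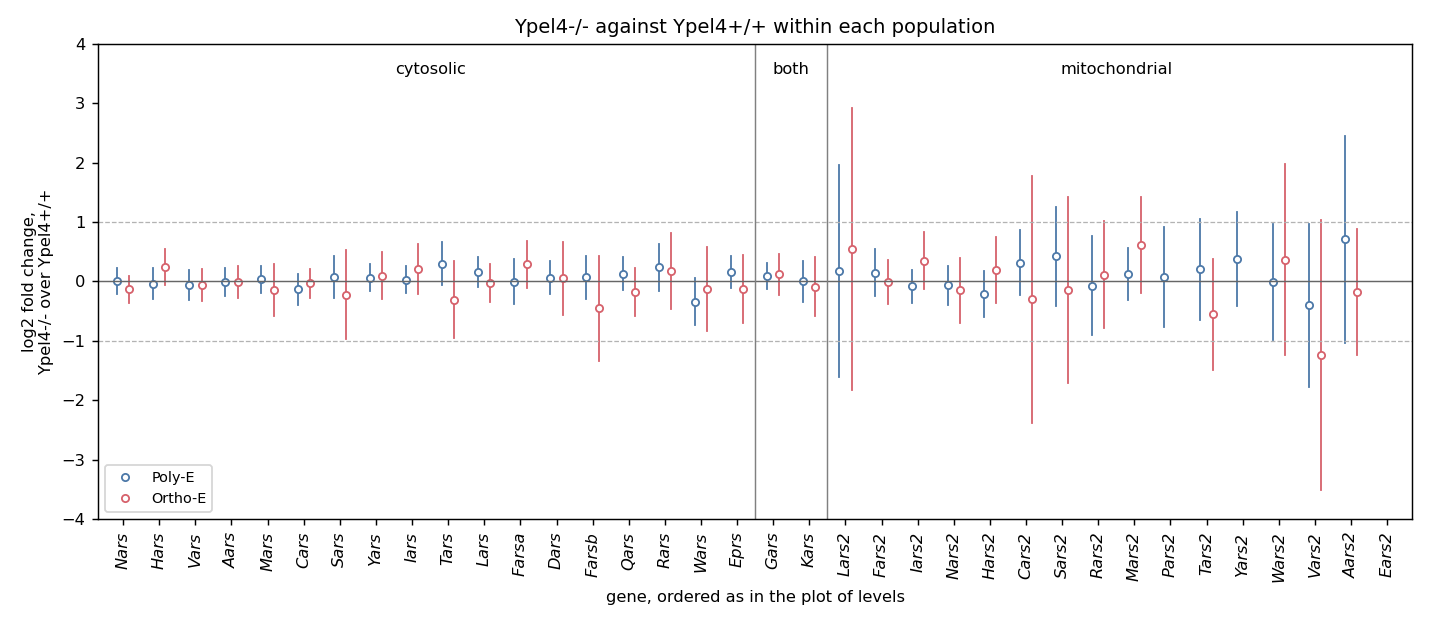
Log2 fold change of Ypel4-/- against Ypel4+/+ with 95% intervals for each tested member in Poly-E and Ortho-E, with dashed lines at −1 and 1. No member was called, and the intervals of 29 of 35 members in Poly-E and, in Ortho-E, of 23 of 33 lie between the lines.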

How the data were processed

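RNA was sequenced by the authors with TruSeq RNA v2 libraries on a NextSeq 500. Per the submitters' processing notes and the methods, reads were processed with nf-core/rnaseq 1.4.2 against GRCm38, and the authors deposited whole-number counts of read pairs per gene from featureCounts 1.6.4, without regard to strand and without reads of several places or genes. These counts are not normalized. Sample titles gave the groups and replicate numbers of the 16 libraries.

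The members and lists were chosen with earlier results of these data known. Counts were tested in R 4.3.3 with the robust quasi-likelihood test of edgeR 4.0.16 (TMM) over all genes whose counts in a fit summed to 10 or more, and p-values were adjusted by Benjamini and Hochberg's method, with calls at 0.05 or less. Ortho-E was compared with Poly-E in each genotype and genotypes within each population, with 8 libraries each, and the interaction used 16. SE and 95% intervals are of log2 fold changes. Counting intervals cover counting error only, as the libraries hold no molecular identifiers. TPM used the deposited gene lengths, and CPM for the text were scaled with TMM over all libraries. Motif matches and sequences came from RefSeq windows. A list of further genes of mitochondrial charging is not reported here. Tests were tried on simulated data, and no library was a copy of another. p-values measure the spread between the libraries of a group, which edgeR moderates with that of other genes.

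Values per library are given for the 4 lowest and 3 highest cytosolic and mitochondrial members by the mean of both log2 fold changes, for Gars and Kars, and, between genotypes, for members of lowest p. Alternatives were DESeq2 1.42.0 and its size factors in edgeR, library totals, other filters, globin genes left out, all 16 libraries in the fit, the replicate number as a block, a term for replicates 1 and 2 against 3 and 4, and each library left out. The sums without Lars2, library totals for the lists of other genes and the fits without Ypel4-/- Ortho-E replicates 1 and 3 were added after seeing the data. Deviations from group means over 7456 genes were correlated between libraries. Same-numbered Poly-E and Ortho-E libraries gave 0.253 to 0.412 in Ypel4+/+ and 0.0577 to 0.355 in Ypel4-/-. Differently numbered ones gave −0.333 to 0.289 and −0.303 to 0.171. The deposited names give same-numbered libraries a shared further number, read here as the mouse. They were treated as pairs in the block and in the ratios within a replicate number, although their lowest correlation is near 0. The main fits held no block, so their SE, p-values and calls leave the pairing out. Same-numbered libraries of the genotypes correlated at 0.169 to 0.5 in Poly-E and −0.0657 to 0.201 in Ortho-E.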

Additional observations from a re-analysis of the deposited data

Results flagged for a closer look

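A library stood apart from the other 3 of its group, by a gap of at least 0.835 of the group's range (Dixon's test at 95%), in 9 of the 108 groups of 4 libraries examined, where chance gives about 1 in 20. These were Dars in Ypel4+/+ Ortho-E replicate 2 at 2.86 CPM, Farsb in Ypel4-/- Ortho-E replicate 3 at 7.22 CPM, Gars in Ypel4+/+ Ortho-E replicate 2 at 85.1 CPM and in Ypel4-/- Poly-E replicate 3 at 51.3 CPM, and Kars in Ypel4+/+ Ortho-E replicate 1 at 11.8 CPM. Among mitochondrial members they were Pars2 at 0.333 CPM in Ypel4+/+ Ortho-E replicate 3 and at 1.35 CPM in Ypel4-/- Ortho-E replicate 1, Cars2 at 1.399 CPM in Ypel4+/+ Ortho-E replicate 4 and Yars2 at 0.371 CPM in Ypel4-/- Ortho-E replicate 2. In 3 of these 4 groups, Pars2 and Cars2 in Ypel4+/+ and Yars2 in Ypel4-/-, the other libraries were at 0, so that the gap fills the whole range by construction and the rate of chance does not apply.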

How the results depend on the processing

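On library totals the members called in Ypel4+/+ rose from 19 to 31, and log2 fold changes called with TMM turned sign for Sars (−0.64 in Ypel4+/+, −0.95 in Ypel4-/-), Lars (−0.64, −0.84), Gars (−0.84, −0.82) and Cars (−0.92, −0.84), and in Ypel4-/- for Iars (−0.996) and Rars2 (−0.48). Leaving out each library gave 16 to 19 calls in Ypel4+/+ and 17 to 22 in Ypel4-/-, and 0 for the genotypes and the interaction. Without Ypel4-/- Ortho-E replicates 1 and 3, 17 were called. filterByExpr left fewer genes tested and gave 16 in each genotype. A fit that blocks on the replicate number called 21 and 22, with Farsa (−0.52) and Lars2 (1.78) gained in Ypel4+/+, Aars (−0.23) gained and Rars2 (0.89) lost in Ypel4-/-, and 0 in the genotype comparisons and the interaction. Counts under 3 per group and a spread of Lars2 wider than its difference limit the mitochondrial class.

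Values below are for Ypel4+/+ Poly-E, Ypel4-/- Poly-E, Ypel4+/+ Ortho-E and Ypel4-/- Ortho-E. With globin genes left out, the summed cytosolic TPM were 1402, 1424, 838 and 790.3, and with Gars and Kars counted as cytosolic the Poly-E sums were 1247 and 1280.
The medians over cytosolic members were 31.2, 33.6, 10.9 and 11.3 TPM and over mitochondrial members 2.05, 2.36, 0.676 and 0.653 TPM. The mitochondrial share of these medians was 6.15%, 6.56%, 6.31% and 5.45%. Without Lars2 the mitochondrial sums were 55.5, 58.99, 27.1 and 28.2 TPM and the shares 4.67%, 4.86%, 4.90% and 5.18%.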
